A study of Homo sapiens with 6 samples.

Results

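CpG islands at peaks centred away from annotated start sites were examined for acetylation of histone H4 (H4ac) after knockdown of TIP60. The cells were H1975, an established human non-small cell lung cancer line. The islands were taken as the H4ac peaks of the control library that carry a CpG island in the deposited HOMER annotation. Their centres lie over 1000 bp from the nearest start site, and some wide peaks still cover it. These were 1303 of 36034 control peaks, and they were set against the 22572 other control peaks over 1000 bp from a start site, called other distal peaks here. Positions of peaks are on the hg19 build. Another 1823 control peaks with the island label lay within 1 kb of a start site.

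Chromatin was immunoprecipitated with an H4ac antibody and sequenced in cells with a hairpin against TIP60, shTIP60-B or shTIP60-C, and in cells with a control hairpin, shControl. The hairpins were inducible, and the cells of all 3 groups had received 0.5 ug/ml doxycycline for 2 days. Each group had 1 H4ac library and 1 input library, so the differences given here could not be checked against replicates, and no p-value was computed. The amount of TIP60 was not measured in the files used here, and nothing in the labels says whether each hairpin line is 1 clone. The control peaks held 2842710 reads of shTIP60-B, 6746689 of shTIP60-C and 3638815 of shControl, and counting error was smallest with shTIP60-C. Start sites of 6 of 6 epithelial genes (EPCAM, CDH1, KRT8, KRT18, EGFR and NKX2-1) had a control peak. Of 7 genes that mark other cell types, only COL1A1 did, with 57 control reads. Among the epithelial genes, NKX2-1 and CDH1 had fewer, 19 and 25.

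CpG islands are stretches of CpG-rich and mostly unmethylated DNA, and most mark gene promoters. Islands outside annotated promoters, often called orphan islands, can be start sites of unannotated or tissue-specific transcripts or can lie in enhancers. TIP60, the product of KAT5, is the acetyltransferase of the NuA4 complex and acetylates histones H4 and H2A. Acetylated H4 marks active promoters and enhancers.

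The nearest genes' own promoters are shown for 2 islands that come up below, so that the CpG content of the start site can be read beside the H4ac values of island and start site. They are RefSeq windows of the 250 bases before the start on the GRCh38.p14 build, at chr22:39399530-39399779 for TAB1 and chr9:130693510-130693759 for EXOSC2, both on the plus strand, with each CG in capitals.
TAB1: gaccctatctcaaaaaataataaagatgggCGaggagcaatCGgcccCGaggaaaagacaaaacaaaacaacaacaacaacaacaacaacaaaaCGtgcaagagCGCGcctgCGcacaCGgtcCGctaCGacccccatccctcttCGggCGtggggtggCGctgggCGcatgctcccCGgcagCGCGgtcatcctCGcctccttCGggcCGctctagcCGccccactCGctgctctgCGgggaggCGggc
EXOSC2: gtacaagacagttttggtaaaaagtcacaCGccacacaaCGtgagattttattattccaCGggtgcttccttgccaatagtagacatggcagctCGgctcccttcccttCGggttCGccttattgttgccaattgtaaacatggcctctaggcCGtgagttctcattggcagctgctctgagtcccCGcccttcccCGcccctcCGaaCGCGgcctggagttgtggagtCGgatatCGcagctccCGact
The TAB1 window holds 24 CG and has 61.6% G and C, and the EXOSC2 window holds 15 CG with 54.4%. Of 27305 promoters in the RefSeq table, 93.6% hold at least 1 CG in that window, and the median is 11; CG reads the same on both strands. TAB1 encodes an activator of the kinase TAK1 in TGF-beta and cytokine signalling, and EXOSC2 a subunit of the RNA exosome. The island peak 11070 bp upstream of TAB1 had 14 reads in shTIP60-B, 31 in shTIP60-C and 42 in shControl. At the TAB1 start site the same libraries had 144, 312 and 122 reads, and H4ac there was not low with either hairpin.

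The distal islands were mostly intergenic, with 849 between genes and 454 in introns. Of all 1303, 693 lay upstream and 610 downstream of the nearest start site, at a median distance of 13680 bp, against 24651.5 bp for other distal peaks. The nearest gene was protein-coding for 1002, a non-coding RNA for 229 and a pseudogene for 66, and the other 6 had another type or none. Only 221 lay within 2 kb of the start site, and 188 lay over 50 kb away. They pointed to 1133 nearest genes, and joining members under 50 kb apart gave 1096 runs, of which 952 held a single peak, 107 held 2, 27 held 3 and 10 held at least 4.

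In the control library the distal islands were stronger and wider peaks than other distal peaks. The median island peak was 1069 bp wide (quartiles 749 and 1495.5) and held 70 control reads, with quartiles of 35 and 147 and a range from 14 to 3647. The median other distal peak was 816 bp wide and held 39. Per kb of peak, the medians were 63.2 control reads at islands and 46.6 at other distal peaks. In the knockdown libraries the median island peak held 60 reads of shTIP60-B and 135 of shTIP60-C, against 30 and 70 at other distal peaks. The islands took 4.66% of all reads in control peaks with shTIP60-B (4.63 to 4.68), 4.61% with shTIP60-C (4.59 to 4.62) and 4.51% in shControl (4.49 to 4.53). These intervals and those of all ratios in the text are 95% Clopper-Pearson intervals of the reads, and they cover counting error only, since reads are not independent molecules.

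The first comparison asked whether H4ac at distal islands differed with shTIP60-B as it did at other distal peaks. Islands had the higher ratios at these control peaks. The median log2 ratio of shTIP60-B over shControl was 0.06 at islands (quartiles -0.34 and 0.42) and -0.11 at other distal peaks (-0.65 and 0.36), a difference of 0.16. A ratio adds 0.5 read to each count and is scaled by the reads in all control peaks, so it is relative to them, and a loss shared by all peaks is not measured. On this scale the median of all control peaks was -0.08 for shTIP60-B and -0.07 for shTIP60-C. At least 2-fold lower ratios were seen at 75 islands, 5.76% of them, against 14.9% of other distal peaks. The background over all control peaks was 11.7%, and over all distal ones 14.4%. At least 2-fold higher ratios were seen at 66 islands, or 5.07%, against 4.04% of other distal peaks, with 3.46% over all control peaks and 4.1% over all distal ones.

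With shTIP60-C the ratios were closer together, and the islands again lay above other distal peaks. Their median log2 ratio was 0.00 (quartiles -0.23 and 0.25), against -0.12 (-0.45 and 0.18), a difference of 0.12. Only 19 islands, 1.46%, were at least 2-fold lower with shTIP60-C, against 6.60% of other distal peaks, where all control peaks gave 4.71% and all distal ones 6.32%. Only 4 were at least 2-fold higher, near CES4A, DLX3, VAX2 and EXOSC2. That is 0.307% of islands, against 0.656% of other distal peaks, where all control peaks gave 0.611% and all distal ones 0.637%. Both comparisons use the same control library, so they are not independent of each other.

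**Figure D1:**
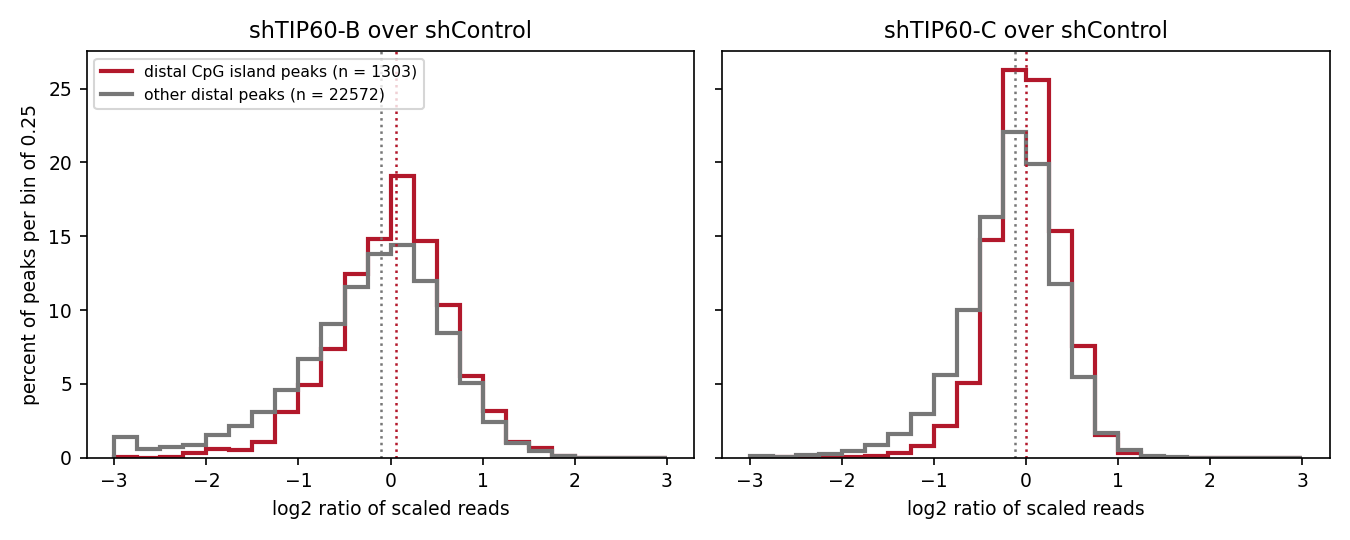
Distribution of the log2 ratio of scaled H4ac reads, shTIP60-B over shControl (left) and shTIP60-C over shControl (right), as the percent of peaks in bins of 0.25; values beyond 3 in either direction are placed in the end bins. The red line is the 1303 distal CpG island peaks and the grey line the 22572 other distal peaks, with dotted lines at the medians: the island curve has a smaller share of peaks at low ratios with both hairpins.

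The gap between islands and other distal peaks was widest at weak peaks. With 12 to 24 control reads, the median of the 155 islands was 0.00 for shTIP60-B and that of the 6055 other distal peaks -0.29, a difference of 0.29. In bins of rising control reads, 25 to 49, 50 to 99, 100 to 199 and 200 or more, the difference was 0.27, 0.12, 0.05 and 0.05. With shTIP60-C the differences over the same 5 bins were 0.26, 0.15, 0.10, 0.05 and 0.01. The strongest bin held 207 islands, whose medians were -0.03 for shTIP60-B and -0.05 for shTIP60-C, against -0.08 and -0.05 at other distal peaks. Summed over all reads, which weights strong peaks, the islands' log2 ratio was 0.05 (0.04 to 0.06) for shTIP60-B and 0.03 (0.02 to 0.04) for shTIP60-C, against 0.03 and -0.01 at other distal peaks. The small gap with shTIP60-B turned to -0.02 over peaks with at least 50 reads in both libraries together.

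**Figure D2:**
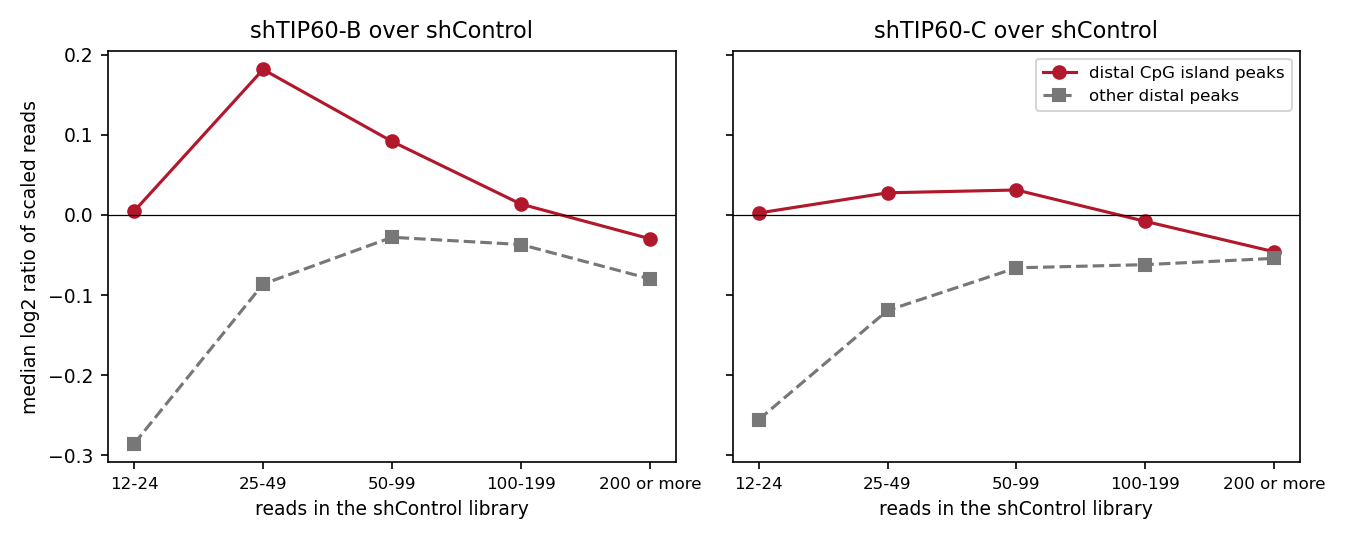
Median log2 ratio of scaled H4ac reads (vertical axis) by the number of reads a peak held in the shControl library (5 bins), with shTIP60-B (left) and shTIP60-C (right). Red circles are distal CpG island peaks and grey squares other distal peaks; the lines are 0.29 and 0.26 apart in the weakest bin and 0.05 and 0.01 apart in the strongest.

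The direction of this gap turned with the library whose peaks defined the regions. All values above are at peaks called in shControl, where a region had to pass the peak caller in shControl, whatever its level in the knockdown library. At peaks called in the shTIP60-B library, the median ratio was 0.26 at 1172 distal islands and 0.44 at 15620 other distal peaks, a difference of -0.17. At peaks called in the shTIP60-C library it was 0.14 at 1216 islands and 0.19 at 18048 other distal peaks, a difference of -0.05. There the islands were less often at least 2-fold higher, 14.1% against 22.6% for shTIP60-B and 3.45% against 7.97% for shTIP60-C. They were also less often at least 2-fold lower, 1.02% against 1.41% for shTIP60-B and 0.164% against 0.244% for shTIP60-C. At control peaks that the authors list as common to both libraries, the difference was -0.02 with shTIP60-B, from medians of 0.17 and 0.19, and 0.03 with shTIP60-C, from 0.04 and 0.01.

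**Figure D3:**
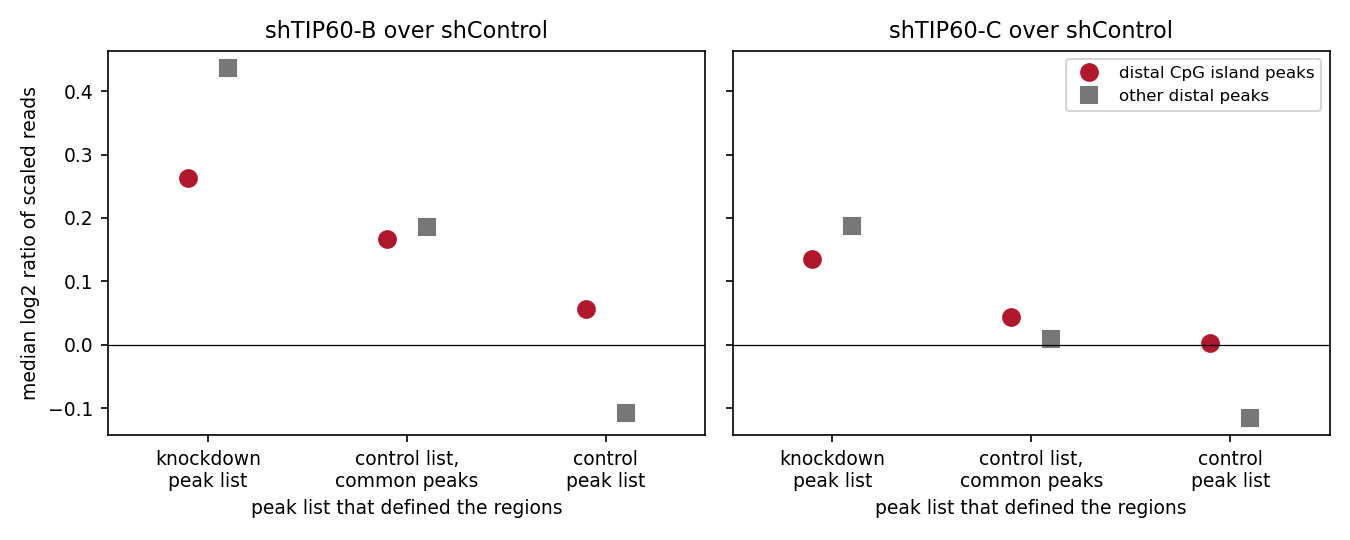
Median log2 ratio of scaled H4ac reads, knockdown over shControl (vertical axis), at distal CpG island peaks (red circles) and other distal peaks (grey squares) for 3 ways to define the regions, with shTIP60-B (left) and shTIP60-C (right). Islands lie below other distal peaks in the knockdown list, by 0.17 and 0.05, and above them in the control list, by 0.16 and 0.12.

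In each of these lists a smaller share of islands than of other distal peaks had no peak in the other library. Of the control peaks, 230 distal islands (17.7%) had no peak in the shTIP60-B list, against 40.3% of other distal peaks, and 124 (9.52%) had none in the shTIP60-C list, against 27.4%. Over all control peaks these shares were 31.5% and 20.1%, and at islands within 1 kb of a start site they were 15.3% and 6.97%. In the knockdown lists 8.62% of islands had no control peak with shTIP60-B, against 17.0% of other distal peaks. With shTIP60-C these shares were 6.99% and 15.5%. The islands held more control reads per peak (above), and the part of this in the shares was not tested.

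The control library can be left out by setting shTIP60-B directly against shTIP60-C at the control peaks. The median log2 ratio of shTIP60-B over shTIP60-C was 0.05 at islands (quartiles -0.32 and 0.38) and 0.02 at other distal peaks (-0.45 and 0.44). The medians differed by 0.02, while the spread was narrower at islands. Counting error alone left most single islands unresolved. The interval of the ratio lay below 0 at 213 islands (16.3%) and above 0 at 269 (20.6%) with shTIP60-B, against 20.6% and 14.8% of other distal peaks. With shTIP60-C it lay below 0 at 151 (11.6%) and above 0 at 186 (14.3%), against 16.8% and 8.44%.

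By the authors' deposited table, with M (their rescaled log2 ratio) at least 1 in size and a deposited p of at most 1e-05, few islands stood out. With shTIP60-B, 34 islands were lower (2.61%) and 20 higher (1.53%), where all control peaks gave 3.98% and 0.949%, and all distal ones 4.2% and 1.11%. With shTIP60-C, 2 were lower (0.153%) and 0 higher, where all control peaks gave 0.0666% and 0.0583%, and all distal ones 0.0796% and 0.067%. The deposited p compares 2 libraries, not conditions. The authors' rescaling put the median M of islands at -0.08 for shTIP60-B and -0.05 for shTIP60-C, against -0.34 and -0.18 at other distal peaks. It moved the median of all control peaks by -0.19 and -0.05 from the scaled counts, which made the islands' median negative with both hairpins and left islands above other distal peaks.

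With shTIP60-B the ratios differed more between chromosomes than between islands and other distal peaks. On 22 of 23 chromosomes the median of islands was above that of other distal peaks, chromosome 6 being the exception. The islands' chromosome medians ran from -0.56 on chromosome 20, where other distal peaks had -0.63, to 0.44 on chromosome 11, where they had 0.09. Chromosome 16 had -0.42 at its 53 islands and -0.48 at other distal peaks, and chromosome 1 had -0.25 and -0.32. With shTIP60-C the islands' medians ran only from -0.21 to 0.18. They lay above other distal peaks on 20 of 23 chromosomes, the exceptions being 3, 8 and 21. Chromosomes 18 and 21 held only 14 and 10 islands.

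**Figure D4:**
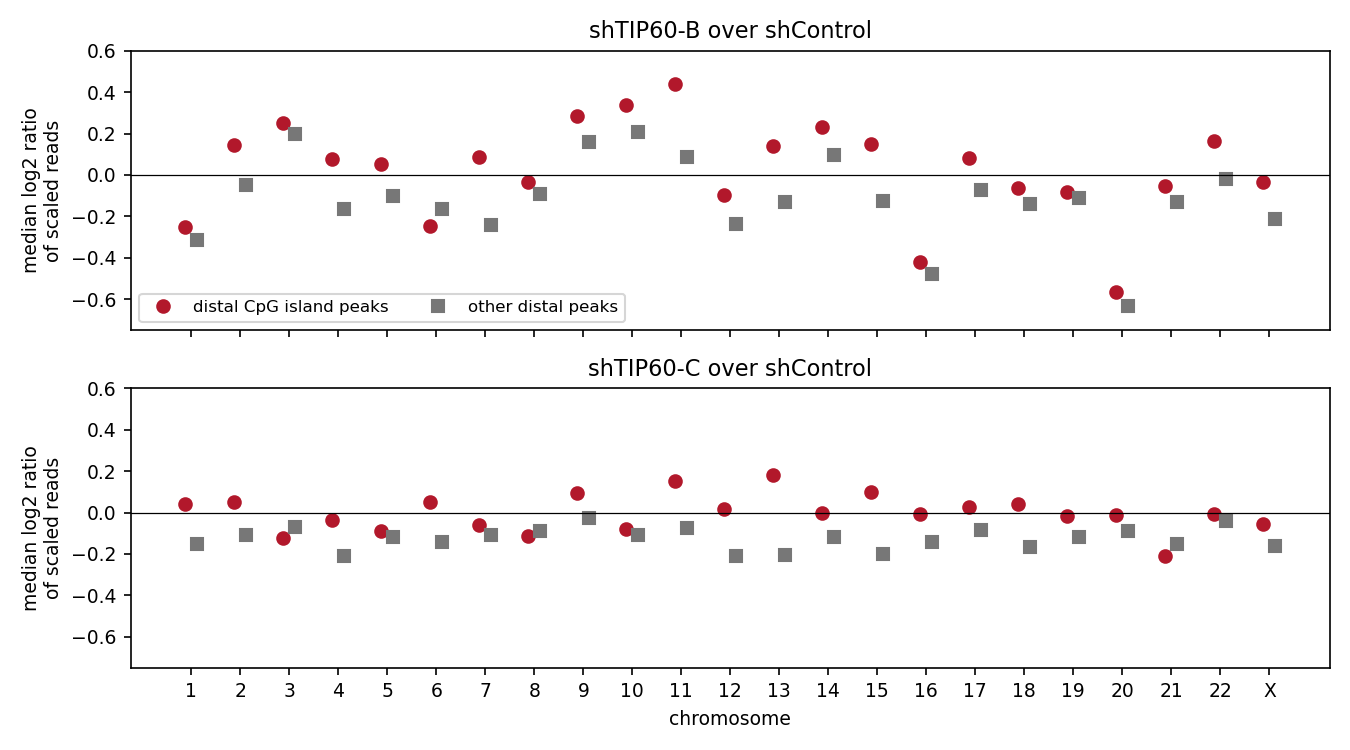
Median log2 ratio of scaled H4ac reads per chromosome with shTIP60-B (top) and shTIP60-C (bottom), for distal CpG island peaks (red circles) and other distal peaks (grey squares). With shTIP60-B both kinds of peak are low together on chromosomes 16 and 20; with shTIP60-C the islands' medians stay between -0.21 and 0.18.

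Intergenic islands had medians of 0.07 for shTIP60-B and 0.00 for shTIP60-C, and intronic ones 0.02 and 0.01. Upstream islands had 0.05 and 0.00, and downstream ones 0.06 and 0.01. Islands nearest to a protein-coding gene had 0.06 and 0.02, those nearest to a non-coding RNA 0.09 and -0.02, and those nearest to a pseudogene -0.05 and -0.06. The 221 islands within 2 kb of a start site had -0.07 with shTIP60-B, while the 553 between 10 and 50 kb had 0.12. With shTIP60-C these were 0.02 and -0.01. Between them lay 2 further distance classes. The nearer one (163 islands) had 0.05 for shTIP60-B and 0.06 for shTIP60-C, and the farther one (178) had -0.02 and 0.02. The 188 islands over 50 kb away had 0.02 and -0.03. With shTIP60-B the medians thus did not rise steadily with distance. Their lowest and highest values lay further apart than the gap of 0.16 between islands and other distal peaks. The islands within 1 kb of a start site had -0.05 and 0.03. Other distal peaks had negative medians in each of their classes, with -0.09 and -0.13 in introns, -0.10 and -0.09 between genes and -0.13 and -0.13 in repeats. At the edge of the rule, the islands at 1003 bp near ZIC2 and SETD7 had log2 ratios of -0.23 and -0.10 for shTIP60-B and -0.08 and 0.16 for shTIP60-C. Just inside 1 kb, FOXP1 at 999 bp had -0.51 and 0.18, and KLF4 at 996 bp had 0.36 and 0.96.

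The islands were also set beside the start sites of their own nearest genes. For 628 islands of 544 genes, a start site of that gene carried a control peak as well. Where a gene had several such peaks, the one with most control reads was used. It was matched by gene symbol alone, so it need not mark the start site nearest to the island, or lie close to it. The medians were 72 control reads at the island and 101.5 at that start-site peak, and 254 islands held more control reads than it. The island's log2 ratio minus that of the start site had a median of 0.16 for shTIP60-B (quartiles -0.33 and 0.67) and 0.02 for shTIP60-C (-0.33 and 0.40). Across these 628 pairs, which share libraries and in part genes, Spearman's rho was 0.18 for shTIP60-B and -0.04 for shTIP60-C. Of 37 such islands at least 2-fold lower with shTIP60-B, 5 had a start site at least 2-fold lower, and of 39 higher ones 1 had a higher start site. With shTIP60-C these were 0 of 13 and 0 of 1. At other distal peaks with such a start site, the counts for shTIP60-B were 165 of 1677 lower and 17 of 465 higher, rho was 0.17 and the median difference was -0.04. For shTIP60-C they were 10 of 782 and 1 of 66, with a rho of 0.05 and a median difference of -0.12.

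The 6 islands with most control reads had log2 ratios from -0.26 to 0.65 with either hairpin. The one with most reads, a cluster of 33725 bp on chromosome 1 (228749117 to 228782841) nearest to MIR7641-2, had 2401 reads of shTIP60-B, 8809 of shTIP60-C and 3647 of shControl. Its log2 ratios were -0.25 (-0.32 to -0.17) and 0.38 (0.33 to 0.44), opposite in sign. The centre of this peak was 4244 bp from the nearest start site, so a peak this wide covers that start site. Islands near FAM231C and FAM231A, near-identical copies on chromosome 1 whose reads may be split between them, had -0.02 and -0.04 for shTIP60-B and 0.19 and 0.14 for shTIP60-C.

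IGF2BP2, which encodes an mRNA-binding protein, has an island peak annotated to intron 1 (chromosome 3, 185538035 to 185544288). The peak is 6254 bp wide with its centre 1683 bp from the nearest start site, so it covers that start site. It had 1159 reads of shTIP60-B, 1949 of shTIP60-C and 943 of shControl, log2 ratios of 0.65 (0.53 to 0.78) and 0.16 (0.04 to 0.27). The island 9457 bp upstream of the let-7a-1 microRNA gene MIRLET7A1 had 778, 1881 and 915 reads and ratios of 0.12 and 0.15. An island 5611 bp upstream of LINC00963 had 810, 2216 and 1244 reads and ratios of -0.26 and -0.06.

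CREB5, a bZIP transcription factor gene, has an island in intron 1 (chromosome 7, 28448599 to 28449994), 2848 bp upstream of the nearest start site. It had 60 reads of shTIP60-B, 201 of shTIP60-C and 241 of shControl, which is 21.1, 29.8 and 66.2 per 1000000 reads in control peaks. Both knockdown libraries were below shControl beyond counting error, with log2 ratios of -1.64 (-2.08 to -1.24) and -1.15 (-1.43 to -0.88). A control peak at another start site of CREB5, far from the island (about 28724700 to 28726600), had 184, 292 and 190 reads. Its ratios were 0.31 and -0.27, and they do not describe the start site nearest to the island. The TAB1 island (chromosome 22, 39784284 to 39785094, intergenic) had log2 ratios of -1.20 (-2.22 to -0.33) and -1.32 (-2.05 to -0.62), against 0.59 and 0.46 at its start site. It rests on few reads, 14, 31 and 42. Among 1192 islands with at least 40 reads in each comparison, only those near CREB5 and TAB1 were at least 2-fold lower with both hairpins. That is 0.168%, against 0.541% of all distal peaks with as many reads. Only 1, near EXOSC2, was at least 2-fold higher with both, 0.0839% against 0.298%. Both ratios share the control library.

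CBX8, which encodes a chromobox subunit of Polycomb repressive complex 1, had 3 distal islands with different values. The one 12907 bp upstream (chromosome 17, 77783081 to 77784564) had 37 reads of shTIP60-B, 238 of shTIP60-C and 167 of shControl, log2 ratios of -1.80 (-2.37 to -1.30) and -0.38 (-0.67 to -0.09). The stronger one 16901 bp upstream (77786144 to 77789489) had 520, 1319 and 665 reads and ratios of 0.00 and 0.10. The island 4112 bp upstream had 24, 29 and 34 reads and ratios of -0.14 and -1.12.

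The other named islands lowest with shTIP60-B had ratios closer to 0 with shTIP60-C. The island in intron 1 of KDM7A, a histone demethylase gene (chromosome 7, 139875183 to 139876169), lay only 1065 bp from the start site. It had 15 reads of shTIP60-B, 99 of shTIP60-C and 68 of shControl, log2 ratios of -1.79 (-2.74 to -1.003) and -0.35 (-0.81 to 0.12). The island 18326 bp upstream of the guidance factor gene NTN1 had 5, 45 and 35 reads and ratios of -2.33 (-4.16 to -1.09) and -0.53 (-1.20 to 0.15). The island near EGR3, an early growth response factor gene, had 7, 63 and 43 reads, and ratios of -2.18 and -0.34. Its start site had -1.83 with shTIP60-B and -0.99 with shTIP60-C. Islands near ACOT11, a thioesterase gene, and MIR3937 had -1.74 and -2.05 for shTIP60-B and -0.24 and -0.70 for shTIP60-C.

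Besides TAB1, the lowest islands with shTIP60-C lay near 5 other genes. ARID3A, a DNA-binding factor gene (chromosome 19, 940526 to 941825, intron 3), had 44 reads of shTIP60-B, 61 of shTIP60-C and 88 of shControl. Its log2 ratios were -0.64 (-1.20 to -0.11) and -1.42 (-1.91 to -0.93). MECOM, a zinc finger factor gene, had 24, 15 and 27 reads at its island and ratios of 0.19 and -1.72. ZNF800 and ALLC had -1.41 and -1.22 with shTIP60-C and -0.16 and 0.54 with shTIP60-B. The island in intron 3 of LTBP4, which encodes a latent TGF-beta binding protein, had only 5, 19 and 26 reads and ratios of -1.91 and -1.33.

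Among the islands higher with a hairpin, the one in an intron 12587 bp upstream of EXOSC2 (chromosome 9, 133556210 to 133556910) was high in both knockdown libraries. It had 60 reads of shTIP60-B, 103 of shTIP60-C and 27 of shControl, log2 ratios of 1.49 (0.83 to 2.22) and 1.02 (0.42 to 1.71). The EXOSC2 start site, whose promoter is printed above, had 96, 165 and 75 reads and ratios of 0.71 and 0.24. EXOSC2 names this island only as its nearest start site, and the annotation gives the intron by transcript, not by gene. PPP2R5C, a regulatory subunit gene of protein phosphatase 2A (chromosome 14, 102247525 to 102248369, intron 2), had 107, 103 and 39 reads and ratios of 1.80 (1.27 to 2.38) and 0.50 (-0.03 to 1.08). EXOC3L4 on the same chromosome (103570437 to 103571227, intron 4) had 77, 108 and 30 reads and ratios of 1.70 (1.09 to 2.38) and 0.94 (0.36 to 1.59).

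The other islands highest with shTIP60-B lay near LINC02036, FIGNL1, an ATPase gene of homologous recombination, the ephrin receptor gene EPHB3 and the augmin subunit gene HAUS7. They had log2 ratios from 1.55 to 1.92 with shTIP60-B, with 17 to 25 control reads each. With shTIP60-C their ratios were -0.37, 0.13, 0.37 and 0.75. The EPHB3 start site was also high, at 1.02 for shTIP60-B and 0.95 for shTIP60-C.

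The islands highest with shTIP60-C lay in 3 cases inside the first intron of a transcription factor gene. Their centres were 1607 bp (DLX3), 1068 bp (VAX2) and 1419 bp (FOXO1) from the nearest start site, not far past the threshold of 1000 bp. The DLX3 homeobox gene (chromosome 17, 48070670 to 48071293) had 25 reads of shTIP60-B, 103 of shTIP60-C and 23 of shControl, log2 ratios of 0.47 (-0.40 to 1.36) and 1.25 (0.61 to 1.99). The VAX2 homeobox gene (chromosome 2, 71128309 to 71129268) had 43, 165 and 44 reads and ratios of 0.32 (-0.32 to 0.96) and 1.00 (0.53 to 1.53). The forkhead gene FOXO1 had 15, 75 and 20 reads and ratios of -0.05 and 0.99. The carboxylesterase gene CES4A had 27, 90 and 21 reads at an intergenic island and ratios of 0.71 and 1.18.

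**Figure D5:**
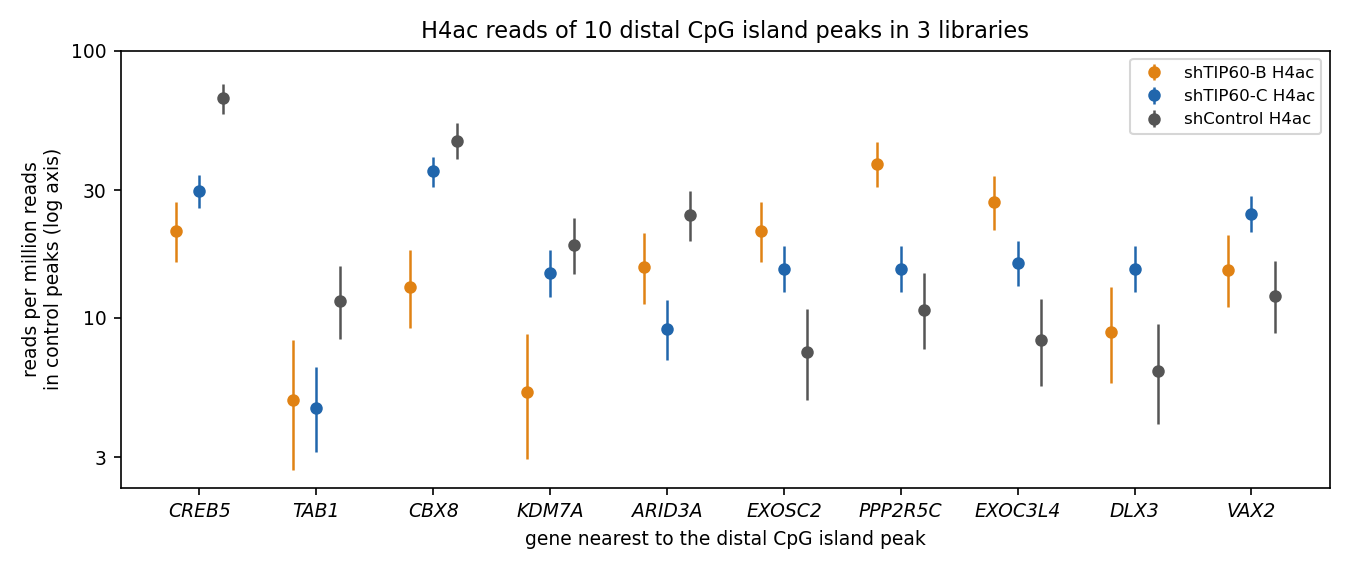
H4ac reads per 1000000 reads in control peaks (log axis) of 10 distal CpG island peaks, named by their nearest gene, in the shTIP60-B (orange), shTIP60-C (blue) and shControl (grey) libraries; bars are 95% Poisson intervals of 1 library each. The CREB5 and TAB1 islands are lower in both knockdown libraries, EXOSC2 is higher in both, and the CBX8 and KDM7A islands are low with shTIP60-B.

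Nearest genes were grouped by lists of genes, and each list is described by its count and median beside those of all islands, 0.06 for shTIP60-B and 0.00 for shTIP60-C. Developmental transcription factor genes, classic neighbours of orphan islands, had 40 islands of 33 genes with medians of 0.15 and 0.05. With shTIP60-B, 1 of them was at least 2-fold lower and 2 were higher, and with shTIP60-C 0 were lower and 2 higher, where all distal control peaks gave 14.4% and 4.1%, and 6.32% and 0.637%. HOXA7 had 228 reads of shTIP60-B, 455 of shTIP60-C and 273 of shControl, and RUNX1 had 235, 619 and 253. Their log2 ratios were 0.10 and 0.25 for shTIP60-B and -0.15 and 0.40 for shTIP60-C.

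Zinc finger genes with a ZNF symbol had 53 islands of 49 genes, with medians of 0.11 for shTIP60-B and -0.11 for shTIP60-C. Of these, 2 were at least 2-fold lower and 1 higher with shTIP60-B, and 2 were lower and 0 higher with shTIP60-C. All distal control peaks gave 14.4% lower and 4.1% higher for shTIP60-B, and 6.32% and 0.637% for shTIP60-C. Over all islands these shares were 5.76% and 5.07%, and 1.46% and 0.307%. The island 43368 bp from ZNF117 had 412 reads of shTIP60-B, 474 of shTIP60-C and 267 of shControl and log2 ratios of 0.98 (0.76 to 1.21) and -0.06. ZNF736 had ratios of 0.18 and -0.45, and ZNF329 had 0.21 and -0.11.

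Chromatin regulator genes outside NuA4 had 19 islands of 13 genes, with medians of -0.10 and 0.04. With shTIP60-B 2 were at least 2-fold lower and 0 were higher, and with shTIP60-C 1 was lower and 0 higher. The background of all distal peaks was again 14.4% and 4.1%, and 6.32% and 0.637%. That of all islands was 5.76% and 5.07%, and 1.46% and 0.307%. KMT2D, a histone H3 lysine 4 methyltransferase gene, had 254 reads of shTIP60-B, 933 of shTIP60-C and 440 of shControl at an island 5165 bp upstream, ratios of -0.44 (-0.67 to -0.21) and 0.19 (0.03 to 0.36). KDM6B, a histone H3 lysine 27 demethylase gene, had ratios of -0.14 and -0.15.

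NuA4 genes had 2 islands. The one near ACTB, whose actin is a subunit of the complex, had 814 reads of shTIP60-B, 1498 of shTIP60-C and 884 of shControl and ratios of 0.24 (0.10 to 0.38) and -0.13 (-0.25 to -0.01). The one near MRGBP had 50, 218 and 114 reads and ratios of -0.82 (-1.34 to -0.34) and 0.04, and it lies on chromosome 20, which was low as a whole with shTIP60-B. Imprinted genes also had 2: TRAPPC9 had ratios of -0.80 and -0.95, and DIO3 had 0.68 and 0.57. Clustered protocadherin genes had 0 distal islands among the control peaks and 9 other distal peaks.

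Where islands lay in runs, the ratios of neighbours were spread, and the part of counting error in this was not tested. Some rest on few reads, such as the highest BCOR ratio with shTIP60-B, from 45 reads against 33 in shControl. The longest run, 9 peaks over chromosome X from 39964032 to 40036482 inside intron 1 of the BCL6 corepressor gene BCOR, held 28 to 434 control reads per peak. Summed over it there were 728 reads of shTIP60-B, 1842 of shTIP60-C and 941 of shControl. Its log2 ratios ran from -0.50 to 0.80 with shTIP60-B, with a median of -0.04, and from -0.49 to 0.58 with shTIP60-C, with a median of 0.20. A run of 7 peaks between CFAP126 and FCGR2A on chromosome 1 had medians of 0.10 and 0.40. The 6 peaks near LINC01503 and LINC00963 on chromosome 9 had 0.33 and 0.32, and the 6 near TMEM105 and BAHCC1 on chromosome 17 had -0.29 and 0.24. The 5 peaks near TEX44 and PTMA, the prothymosin alpha gene, were the most even with shTIP60-B of these runs, with ratios from 0.04 to 0.29.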

How the data were processed

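H4ac and input libraries of H1975 cells were made from chromatin crosslinked in 1% formaldehyde and sequenced as paired-end 75 bp reads, per the labels' protocols. Bowtie2, MACS 1.4.2 and the hg19 build are named in the submitters' processing notes; the HOMER annotation command stands in the header, and its version is not given in the sources used here. Input libraries were not used here. Each table sets 1 knockdown library against shControl and lists the peaks of both. Read counts per region are the authors' deposited whole numbers, not normalised. M is the deposited log2 ratio, rescaled by the authors, and the peak score is the deposited −log10 of their p-value. The tables list 63299 (shTIP60-B) and 66546 (shTIP60-C) regions; all 36034 control peaks stand in both, with equal control counts, and 10 without a distance were left out of the distal sets.

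Ratios were computed here as log2((knockdown + 0.5)/(shControl + 0.5)) minus the log2 ratio of reads summed over all control peaks, in Python 3.11.15 with pandas 2.3.3 and scipy 1.17.1. The code was tested on simulated data. With 1 library per group, 2-fold counts and 95% Clopper-Pearson intervals describe the data in place of a test. Named regions are the 6 islands with most control reads, the 6 lowest and 6 highest per hairpin with at least 40 reads, those 2-fold away in each comparison, 3 per gene list and 2 on each side of 1000 bp. Runs and the third CBX8 island were named after their values were seen, as were the islands of the knockdown lists. A part of the rule that ranks islands by CpG number could not be applied, since the label holds no such count. A few regions named by it are left out of the text. Members and gene lists were chosen with earlier results of these data known. Island DNA is not printed, as no hg19 genome was used here; promoters come from RefSeq, GRCh38.p14.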

Additional observations from a re-analysis of the deposited data

Results flagged for a closer look

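Peaks called in the knockdown libraries with no control peak lie outside the comparison of control peaks. With shTIP60-B 101 distal islands were of this kind and with shTIP60-C 85, or 8.62% and 6.99% of the islands in those lists, against 17.0% and 15.5% of other distal peaks. They were listed because a signal stood there in the knockdown library that the control peaks do not cover. They were chosen for being high in the knockdown library, so their ratios are a description. With shTIP60-B the median of these islands was 32 reads, against 15 in shControl, and with shTIP60-C it was 56, against 16. Their median log2 ratios were 1.44 and 0.90, against 1.45 and 0.89 at other distal peaks with no control peak. The highest with shTIP60-B lay 10651 bp upstream of EIF4A2, a translation initiation helicase gene (chromosome 3, 186490064 to 186491357), with 103 reads of shTIP60-B and 8 of shControl, a log2 ratio of 3.96 (3.01 to 5.29). Upstream of PRKCE, a protein kinase C gene on chromosome 2, such a peak had 55 reads of shTIP60-B and 10 of shControl, and 81 of shTIP60-C and 10 of shControl, log2 ratios of 2.76 and 2.07 against the same control library. The highest with shTIP60-C lay in intron 1 of ZIC2, a zinc finger factor gene on chromosome 13, with 64 reads of shTIP60-C and 7 of shControl, a log2 ratio of 2.21 (1.18 to 3.67). The homeobox gene LHX6 had 62 and 8 reads, a ratio of 1.99.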

How the results depend on the processing

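Of 148 values under alternatives, 81 stayed within their tolerance, 61 moved further and 6 values that had a clear sign turned it. The cause was not tested. The tolerance was counting error for summed reads and 1.5 times the count for numbers of islands. For medians and their differences it came from the spread among island peaks. That spread treats peaks as independent replicates and is not counting error. The shTIP60-C median, near 0, was also negative under 5 alternatives, from -0.0158 to -0.0009 and, with the authors' M, -0.0450. Counts over fewer islands are lower by construction, so shares follow where the set shrank. No paired analysis was possible because each group has 1 library, and no replicate could be left out. The shTIP60-B median of islands (0.0571) was -0.0837 with the authors' M, 0.1108 with at least 50 reads, 0.0989 over 10000 bp from the start site, 0.1187 and 0.1233 centred per chromosome and per 10 Mb window, 0.1276 inside the islands' quartiles of control reads and 0.1662 at common peaks. Its difference from other distal peaks (0.1638) was 0.2536, 0.0570 and 0.2084 with the authors' M, 50 reads and 10000 bp, and -0.0199 at common peaks. The difference of summed reads (0.0156) was -0.0196 with 50 reads, -0.0171 at common peaks, 0.0347 and 0.0416 over 3000 and 10000 bp, 0.0035 without chromosomes 16 and 20, 0.1232 inside the quartiles and 0.0536 against introns and intergenic sequence alone. The 75 lower islands were 138 with the authors' M, 45 (4.04%) with 50 reads, 43 (5.8%, against 5.76%) over 10000 bp, 45 and 40 when centred, 40 (6.04%) inside the quartiles, 22 (2.05%) at common peaks, 190 and 19 at folds of 1.5 and 3, and 34 with the deposited p. The 66 higher ones were 38 with the authors' M, 32 (4.83%, against 5.07%) inside the quartiles, 220 and 5 at folds of 1.5 and 3, and 20 with the deposited p.

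The shTIP60-C median (0.0024) was -0.0450 with the authors' M, 0.0719 and 0.0663 when centred, 0.0412 inside the quartiles and 0.0439 at common peaks. The difference (0.1175) was 0.0720 with 50 reads and 0.0347 at common peaks. The difference of summed reads (0.0363) was 0.0200 with 50 reads, 0.0057 over 10000 bp, 0.1007 inside the quartiles and 0.0600 against introns and intergenic sequence. The 19 lower islands were 29 with the authors' M, 7 (0.56%) with 50 reads, 11 (1.48%, against 1.46%) over 10000 bp, 2 (0.302%) inside the quartiles, 2 (0.17%) at common peaks, 81 and 5 at folds of 1.5 and 3, and 2 with the deposited p. The 4 higher ones were 2 with the authors' M, 2 (0.197%) over 3000 and 2 (0.27%, against 0.307%) over 10000 bp, 8 centred per chromosome, 1 (0.151%) inside the quartiles, 73 and 0 at folds of 1.5 and 3, and 0 with the deposited p. Alternatives chosen after seeing the data were the knockdown peak lists, 5 bins of control reads and leaving out the strongest island. With the knockdown lists the difference was -0.1730 and 12 islands were lower and 165 higher with shTIP60-B, and it was -0.0519, with 2 and 42, with shTIP60-C. Without the strongest island the summed difference with shTIP60-C was 0.0273.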
